A study of Homo sapiens with 10 samples.

Results

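Hepatocyte growth factor (HGF) was given to Huh-7, a cell line from a human hepatocellular carcinoma, at 10 ng/ml for 48 h to drive the cells toward migration. The comparison is made of 1 RNA-Seq library of HGF-treated Huh-7 cells against 1 library of untreated Huh-7 cells, 2 of the 10 libraries of a study of the paraspeckle protein PSPC1 and the kinase PTK6. Genes were kept where the mean of both libraries reached 5 FPKM, reads scaled for gene length and library size, and 10079 of the 58302 listed genes did so. Both Huh-7 records carry the same HGF treatment text, that of the untreated culture included, and the untreated group rests on its labels as control cells. The labels name no transfection for either culture and give the same serum-containing medium for both. The other 8 libraries came from transfected SK-hep1 and Mahlavu liver cancer cells and serve here only for orientation. With 1 library per condition the differences have no replicate check, HGF cannot be told apart from any other difference between the cultures or libraries, and no test of HGF could be made.

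HGF is a secreted protein that is made as an inactive chain and is cut by serine proteases into the form that binds MET, a receptor tyrosine kinase on epithelial cells. Bound MET recruits adaptors such as GRB2 and GAB1 and signals through RAS-MAPK, PI3K-AKT and STAT3. In liver the factor is known for driving hepatocytes to divide after injury, and in carcinoma cells for loosening cell contacts and increasing movement.

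The library of untreated cells held 16374128 reads on genes and that of HGF-treated cells 15245935, as worked out from the FPKM steps that 1 read makes. Both carried the hepatocyte program that defines the line. All 20 listed markers of hepatocyte-like hepatoma cells exceeded 5 FPKM, with AFP, alpha-fetoprotein, at 14881 FPKM untreated and 14370.0 FPKM with HGF, and ALB, albumin, at 5948 and 6029 FPKM. In the 8 other libraries AFP was never above 0.212 FPKM, whereas KRT8, KRT18, MET and SERPINA1, also on the marker list, exceeded 5 FPKM in each of the 8. Of 31 markers of other cell types, 4 were kept by the level filter, the highest being LYZ, lysozyme, at 441 and 427 FPKM. For each difference a 95% counting interval was taken from the split of a gene's reads between both libraries. It covers counting error only, not the difference between cultures. Reads could be recovered for 10068 of the kept genes, with a median of 1323 reads over both libraries.

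Most genes were at nearly the same level in both libraries. The log2 fold changes (HGF over untreated, after quantile normalization and adding 1 to each FPKM) had a median of −0.0017 and an SD of 0.18 across genes, and 88.5% of genes lay within 1.2-fold. Of all kept genes 49.3% were higher with HGF and 50.4% lower, whatever the size of the difference. At least 1.5-fold higher with HGF were 51 genes, 0.506% of those kept, and at least 1.5-fold lower were 31 genes, 0.308%. The counting interval lay above a fold of 1 for 1705 genes, 16.9% of those with reads, and below it for 1656 genes, 16.4%. These intervals were taken without the added 1, so for genes of low level they reach to larger differences than the log2 fold change beside them. With quantile normalization over all 10 libraries in place of these 2, 80 genes were higher and 50 lower by 1.5-fold, the 51 and 31 among them. For orientation, the same filter and threshold picked out between 15.3% and 24.1% of genes in the 6 comparisons of SK-hep1 and Mahlavu transfectants with their mock cells, against 0.814% here. The spread narrowed with level, from an SD of 0.25 at 5 to 10 FPKM, where a gene had a median of 387 reads, to 0.13 above 100 FPKM, where it had 7108. Fold change across genes was almost unrelated to GC content (Spearman's rho −0.019 over 10074 genes of the same 2 libraries) or to gene length (rho −0.0013). At 2-fold, 5 genes were higher and 3 lower. The 3 lower ones were MIR5587, MIR4482 and SNORA33, with 1, 8 and 5 reads in the HGF library, and the 5 higher ones were SNORD63, MIR647, a Y RNA gene, ENSG00000270372 and ENSG00000273179, with between 8 and 46 reads there. These 8 are reported by name only because the count is small, and they were picked out after their values were seen.

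Among genes with 100 or more reads over both libraries, 36 passed 1.5-fold upward with HGF and 19 downward, and the 15 largest differences in each direction are described by name. The higher set held several genes of differentiated hepatocytes. SLC22A7, an organic anion transporter of the liver (GRCh38 chromosome 6, 43295694 to 43305538), was at 3.90 FPKM untreated and 8.63 with HGF, from 87 and 179 reads, a log2 fold change of 0.96 with a counting interval of 0.75 to 1.52. CIDEC, a lipid droplet protein (chromosome 3, 9866711 to 9880254), went from 7.10 to 14.5 FPKM. AGXT, the peroxisomal enzyme that detoxifies glyoxylate (chromosome 2, 240868479 to 240880502), was at 23.1 and 43.8 FPKM, 1.87-fold higher, with 571 and 1008 reads. Its neighbour MAB21L4, 5545 bases away, had a log2 fold change of 0.86 (0.66 to 1.28). ITIH1 and ITIH3 encode heavy chains of the inter-alpha-trypsin inhibitor of plasma and lie 2699 bases apart on chromosome 3. ITIH1 was at 31.2 and 57.97 FPKM, a log2 fold change of 0.88 (0.76 to 1.04). ITIH3 was at 11.8 and 21.7 FPKM, and ITIH2, on another chromosome, at 1078 and 1039. Both neighbouring chains were thus higher, while the more abundant ITIH2 had a log2 fold change of −0.10, or of −0.05 as deposited.

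The other genes of the higher set had mixed roles. AKR1C2, a steroid-reducing enzyme, was at 12.4 and 22.9 FPKM, and its near-identical relative AKR1C1 at 384 and 425, so how reads were divided between these paralogs is uncertain. PKLR, the pyruvate kinase of liver, was at 18.2 and 30.8 FPKM, a log2 fold change of 0.74 (0.61 to 0.93), and overlaps HCN3 (11.8 and 15.3 FPKM) at the 3′ ends on the other strand. CRYL1, an enzyme of the glucuronate pathway, was at 10.3 and 17.9 FPKM, and NFIC, a transcription factor, at 4.59 and 8.60. MUC13, an epithelial mucin, was at 4.03 and 7.49 FPKM. The remaining members were NEURL3, MIR503HG, CA11 and LNX1, with log2 fold changes of 0.87, 0.84, 0.74 and 0.70. LNX1 overlaps FIP1L1, at a mean of 6.29 FPKM, on the other strand. Each of the 15 had a counting interval above a fold of 1, which their choice by fold and number of reads made likely. ITIH1 was the most abundant of them.

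The lower set held inflammatory chemokines, genes of glucose uptake and hypoxia, and nutrient transporters. CCL20, a chemokine that attracts lymphocytes and dendritic cells (chromosome 2, 227813842 to 227817564), was by far the most abundant, at 358 FPKM untreated and 204 FPKM with HGF, 1.72-fold lower, from 4388 and 2331 reads. CXCL1, a neutrophil chemokine, was at 11.2 and 6.43 FPKM. EPO, erythropoietin (chromosome 7, 100720800 to 100723700), was at 7.35 and 3.75 FPKM, a log2 fold change of −0.83 (−1.40 to −0.59). MIR210HG, the host transcript of a hypoxia-responsive miRNA, was at 9.37 and 5.31 FPKM. PFKFB3, which makes the activator of phosphofructokinase, was at 38.1 and 23.1 FPKM, and SLC2A1, the glucose transporter GLUT1, at 47.9 and 30.4. SLC6A14, an amino acid transporter, was at 11.7 and 6.18 FPKM, and SLC19A3, a thiamine transporter, at 67.7 and 41.9. Glucose, amino acids and a vitamin were the cargo of these transporters.

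GJA1, the gap junction protein connexin 43, was at 66.8 and 43.02 FPKM, 1.53-fold lower, from 3323 and 1992 reads. WDR4, a subunit of a tRNA methyltransferase, was at 11.02 and 6.35 FPKM, and POP1, a protein of RNase P, at 12.1 and 7.36. MT1H, a metallothionein, was at 24.8 and 14.7 FPKM, with close relatives that may share its reads. TNK1, CHST10 and EPHA5-AS1 had log2 fold changes of −0.68, −0.65 and −0.67. EPHA5-AS1 overlaps EPHA5 on the other strand, and strand-specific counting is not stated, so their reads cannot be told apart.

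**Figure D1:**
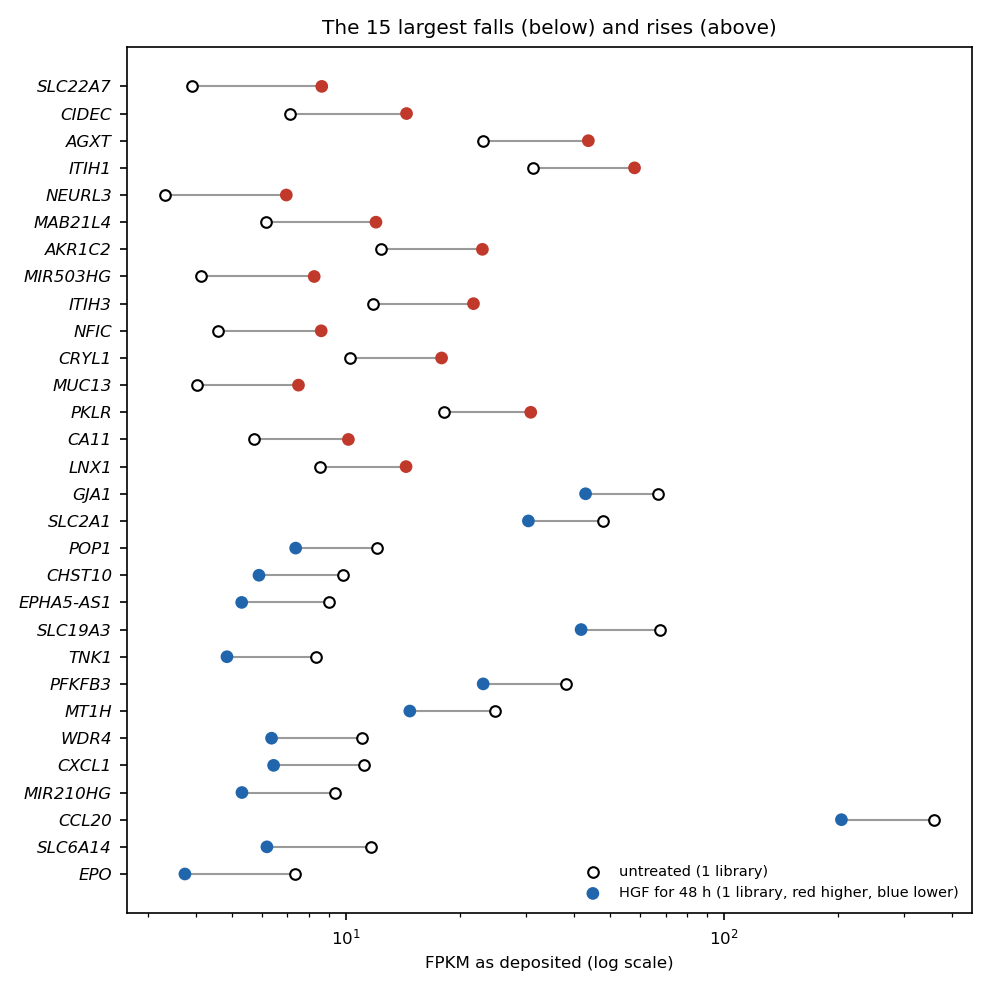
FPKM as deposited (log x axis) of the 15 largest falls and 15 largest rises among genes with 100 or more reads, with an open circle for untreated cells and a filled circle for HGF. CCL20 at 358 and 204 FPKM sits apart from the others, of which SLC19A3 is the highest at 67.7 FPKM untreated.

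The receptor that HGF binds was expressed and differed little. MET (chromosome 7, 116672390 to 116798386) was at 50.01 FPKM untreated and 51.8 FPKM with HGF, from 1899 and 1833 reads, and its counting interval of −0.03 to 0.16 on the log2 scale included 0. Of 25 genes of the receptor, its adaptors and HGF activation, 23 were kept. Across them 19 were higher and 4 lower, the interval lay above a fold of 1 for 7 and below it for 1, and the median log2 fold change was 0.06. Those above were 30.4% of the list and those below 4.35%, against 16.9% and 16.4% of all kept genes with an interval. HGF itself was at 0.0367 and 0.0394 FPKM, and SPINT2, an inhibitor of HGF-activating proteases, at 0.338 and 0.545 FPKM, so both fell below the level filter. The proteases that cut the HGF precursor were the highest of the list. HGFAC, the HGF activator, was at 6.17 and 9.13 FPKM, a log2 fold change of 0.50 (0.28 to 0.86), and ST14, matriptase, at 4.24 and 6.29 FPKM. HPN, hepsin, was at 82.6 and 111 FPKM, and SPINT1, which inhibits these proteases, at 13.99 and 18.6. The adaptors GRB2 (104 and 105 FPKM), GAB1 (21.5 and 23.01 FPKM) and the phosphatase PTPN11 (148 and 139 FPKM) each had an interval that included a fold of 1. The lowest member was PIK3R1, the regulatory subunit of PI3K, at 22.4 and 17.1 FPKM.

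Genes that answer MAPK signaling differed in both directions. Of 34 immediate-early and feedback genes, 27 were kept. In all 11 were higher and 16 lower, 6 with an interval above a fold of 1 and 12 with one below it, and the median log2 fold change was −0.10. SPRY4, a Sprouty inhibitor of the pathway, was the lowest, at 28.6 and 18.6 FPKM, a log2 fold change of −0.58 (−0.76 to −0.44). Its relatives SPRY2 (25.2 and 20.2 FPKM) and SPRY1 (17.2 and 14.05 FPKM) were also lower with intervals below a fold of 1. The phosphatase DUSP6, which switches off ERK, was at 43.97 and 34.99 FPKM, and the most abundant member, DUSP5, at 209 and 176. MYC was at 109.6 and 89.04 FPKM. On the other side KLF6 was at 24.4 and 31.5 FPKM, JUNB at 11.8 and 14.5, and JUN at 24.3 and 28.9. FOS and EGR2 did not pass the level filter. Of the examples given beyond the highest, lowest and most abundant members of a list, here and in the lists that follow, all were chosen after their values were seen.

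Both epithelial and mesenchymal genes had medians above 0. Of 36 epithelial junction and keratin genes, 25 were kept. The median log2 fold change was 0.12, with 17 higher and 8 lower, and the interval cleared a fold of 1 upward for 10 and downward for 6. CDH1, E-cadherin, was at 106 and 130.2 FPKM, 1.25-fold higher, from 3848 and 4415 reads. CLDN3, a tight junction claudin, was at 10.5 and 14.6 FPKM, and KRT19, a keratin of bile duct and progenitor cells, at 219 and 261. The most abundant keratin, KRT8, was at 897 and 825 FPKM, and CLDN6 was lowest, at 47.7 and 41.4.

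Of 36 mesenchymal genes and EMT transcription factors, 23 were kept. With 16 higher and 6 lower, 8 had an interval above a fold of 1 and 3 one below it, at a median log2 fold change of 0.06. COL1A1, a chain of collagen I, was the only member past 1.5-fold, at 12.7 and 19.5 FPKM, a log2 fold change of 0.60 (0.40 to 0.88). CDH2, N-cadherin, was at 20.01 and 23.2 FPKM, and TAGLN and MYL9, proteins of the contractile cytoskeleton, at 6.78 and 9.23 and at 9.97 and 12.8 FPKM. SNAI1, the EMT factor Snail, was at 13.98 and 14.2 FPKM with an interval of −0.18 to 0.24. VIM, vimentin, was at 58.9 and 61.6 FPKM. FN1, fibronectin, was at 2144 and 2291 FPKM as deposited, but its fold after quantile normalization was exactly 1. That step gives 2 libraries the same value at the same rank, which 32 genes shared, 17 of them above 500 FPKM, so for the most abundant genes the deposited values are the ones to read. The counts of higher and lower members and of intervals in every list use the normalized values. In lists of very abundant genes these counts therefore depend in part on the normalization. TWIST1 had no reads in either library. Of 32 matrix protease and scatter genes, 17 were kept. Across them 11 were higher and 6 lower, the interval lay above a fold of 1 for 6 and below it for 2, and the median log2 fold change was 0.07. TIMP1, a protease inhibitor, was highest, at 20.99 and 27.6 FPKM, and CTSB, cathepsin B, was most abundant, at 211 and 242.

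Paraspeckle genes were mostly lower. Paraspeckles are nuclear bodies built on the long RNA NEAT1 by RNA-binding proteins, among them the PSPC1, SFPQ and NONO family. Of 18 genes of these bodies and of PTK6 signaling, 17 were kept. In all 4 were higher and 13 lower, 3 with an interval above a fold of 1 and 10 with one below it, and the median log2 fold change was −0.09. Those below were 58.8% of the list, against 16.4% of all kept genes with an interval. SFPQ was the lowest, at 193 and 138 FPKM, 1.37-fold lower, from 3766 and 2515 reads. PSPC1 (chromosome 13, 19674752 to 19783019) was at 55.2 and 46.2 FPKM, a log2 fold change of −0.24 (−0.37 to −0.13). NONO, the third member of that family, was at 159 and 153 FPKM with an interval of −0.09 to 0.05. NEAT1 was at 54.5 and 59.4 FPKM. HNRNPH1, the most abundant member, was at 420.3 and 394 FPKM. The highest members were the PTK6 substrates STAT5B (37.9 and 44.02 FPKM) and STAP2 (42.8 and 49.8 FPKM). PTK6 itself rested on 15 and 13 reads, and a difference was not detectable at this depth.

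The lists read out by β-catenin and by TGF-β and YAP had medians just below 0. Of 37 Wnt/β-catenin targets and components, 24 were kept. The median log2 fold change was −0.04, with 10 higher and 14 lower, and the interval cleared a fold of 1 upward for 5 and downward for 6. CTNNB1, β-catenin, the most abundant, was at 438 and 409.9 FPKM, a log2 fold change of −0.10 (−0.14 to −0.06). The receptor FZD6 was lowest, at 5.94 and 4.25 FPKM, and the repressor TCF7L1 highest, at 9.71 and 11.97. Of 36 TGF-β and YAP targets, 30 were kept. With 11 higher and 19 lower, 2 had an interval above a fold of 1 and 10 one below it, at a median log2 fold change of −0.06. Those below were 33.3% of the list and those above 6.67%, against 16.4% and 16.9% of all kept genes with an interval. ID1, a target of BMP signaling and the most abundant and lowest member, was at 412 and 313 FPKM, and the related ID3 and ID2 at 265 and 222 and at 183 and 158 FPKM. SMAD6, which inhibits BMP signaling, was at 40.7 and 31.3 FPKM, and LATS2, a Hippo kinase, was highest, at 8.22 and 9.89.

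Genes of DNA replication formed the list with the lowest median. They act at the start of S phase, when the MCM helicase is loaded and the enzymes of nucleotide supply are made, and many are targets of E2F factors. Of 46 replication and G1/S genes, 43 were kept. Across them 5 were higher and 38 lower, the interval lay above a fold of 1 for 1 and below it for 29, and the median log2 fold change was −0.22. Those below were 67.4% of the list, against 16.4% of all kept genes with an interval, and since an interval narrows with the number of reads, abundant genes cleared a fold of 1 at smaller differences. None passed 1.5-fold, so the shift was shared by many genes and small in each. In bulk RNA, a smaller share of cells in S phase and less RNA per cell cannot be told apart. TYMS, thymidylate synthase, was at 25.4 and 18.1 FPKM, a log2 fold change of −0.45 (−0.69 to −0.25), although it overlaps ENOSF1 on the other strand. UHRF1, which keeps DNA methylation after replication, was at 20.6 and 14.7 FPKM, and GINS2, a helicase subunit, at 18.2 and 12.98. E2F1 was at 33.1 and 25.6 FPKM and PCNA, the polymerase clamp, at 120.0 and 98.5. The MCM2 to MCM7 subunits of the helicase were lower in 6 of 6, with log2 fold changes from −0.29 in MCM6 to −0.20 in MCM7, the most abundant member at 378 and 325 FPKM. GMNN, geminin, which blocks helicase loading, was highest, at 74.9 and 83.4 FPKM.

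The promoters of these genes are shown because many of them hold letters of the E2F element, which was not used to write the list although known E2F targets are among its genes. Among the 250 bases before the transcription start (RefSeq, GRCh38.p14; 39 of the 43 kept genes had an entry), 15 promoters held the E2F element TTTCCCGC or TTTGGCGC on either strand, 38.5%. The same letters were in 3.27% of 8067 promoters of kept genes and in 1.96% of all 27305. The 15 replication genes with the element had a median log2 fold change of −0.27 and were lower in 15 of 15, and the 24 without it had a median of −0.20 and were lower in 19. Outside the list, 249 kept genes with the element had a median of −0.029, against −0.00060 for 7779 without it. The promoters of the 3 lowest members each held 1 copy, in capitals, at chr18:657403-657652 (plus strand) for TYMS, chr19:4909251-4909500 (plus strand) for UHRF1 and chr16:85688955-85689204 (minus strand) for GINS2.
TYMS: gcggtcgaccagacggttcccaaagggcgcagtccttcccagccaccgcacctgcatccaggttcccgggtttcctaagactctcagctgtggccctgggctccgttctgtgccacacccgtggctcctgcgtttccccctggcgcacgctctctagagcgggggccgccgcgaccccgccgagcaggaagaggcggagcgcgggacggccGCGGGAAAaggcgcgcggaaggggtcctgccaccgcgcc
UHRF1: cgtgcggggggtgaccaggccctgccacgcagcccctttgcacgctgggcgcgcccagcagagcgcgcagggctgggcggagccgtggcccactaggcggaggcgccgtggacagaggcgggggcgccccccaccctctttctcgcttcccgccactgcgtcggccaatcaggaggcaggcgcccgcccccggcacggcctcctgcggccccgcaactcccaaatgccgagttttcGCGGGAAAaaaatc
GINS2: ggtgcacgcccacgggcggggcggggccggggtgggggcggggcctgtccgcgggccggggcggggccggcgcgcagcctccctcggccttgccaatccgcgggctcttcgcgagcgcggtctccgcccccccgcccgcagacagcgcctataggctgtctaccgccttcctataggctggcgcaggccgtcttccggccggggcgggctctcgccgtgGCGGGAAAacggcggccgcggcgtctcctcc

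Later cell cycle genes lay on both sides of 0. Of 54 G2/M and mitotic genes, 53 were kept. In all 33 were higher and 20 lower, 13 with an interval above a fold of 1 and 6 with one below it, and the median log2 fold change was 0.02. MYBL2, a transcription factor of the late cell cycle, was lowest, at 55.7 and 41.7 FPKM, NEK2, a centrosome kinase, was highest, at 34.3 and 42.3, and TOP2A, topoisomerase II, the most abundant, was at 304 and 338. In 3 of the 9 replication-dependent histone genes that were kept, of 47 listed in the tables, the interval lay below a fold of 1 and in 2 above it, with a list median of −0.04. H1-2 was the most abundant, at 196 and 161 FPKM, H2BC11 the lowest, at 17.3 and 12.2, and H2AC20 the highest, at 6.89 and 10.4. Of 34 DNA damage response genes and cell cycle inhibitors, 28 were kept. The median log2 fold change was 0.04, with 15 higher and 13 lower, and the interval cleared a fold of 1 upward for 11 and downward for 3. CDKN1A, the CDK inhibitor p21, was highest, at 5.53 and 8.66 FPKM, a log2 fold change of 0.56 (0.31 to 0.98). GADD45B and GADD45A, stress-induced growth arrest genes, were at 45.98 and 63.2 and at 51.2 and 65.98 FPKM. CCNG1, the most abundant, was at 225 and 256 FPKM, and AEN, an exonuclease, was lowest, at 18.5 and 13.9.

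The medians of ribosome biogenesis factors and of ribosomal proteins lay on opposite sides of 0, and the difference between these lists was not tested. Of 40 ribosome biogenesis factors, 39 were kept. With 4 higher and 34 lower, 0 had an interval above a fold of 1 and 21 one below it, at a median log2 fold change of −0.15. Those below were 53.8% of the list, against 16.4% of all kept genes with an interval. NOP56, a core protein of the particles that methylate ribosomal RNA, was lowest, at 197 and 142 FPKM, 1.36-fold lower, from 3794 and 2544 reads. NIP7 and NOP2, both needed for the large subunit, were at 40.2 and 29.3 and at 62.7 and 47.6 FPKM. NPM1, the most abundant, was at 1399.6 and 1382 FPKM, and NHP2 was highest, at 63.98 and 69.6. Of 79 ribosomal protein genes, 77 were kept. Across them 57 were higher and 14 lower, the interval lay above a fold of 1 for 45 and below it for 7, and the median log2 fold change was 0.05. On the deposited values that median was 0.066. Their intervals were narrow, with a median from 0.0099 to 0.091, since these genes hold many reads. Their range was narrow too, from −0.19 in RPL26 to 0.17 in RPL28, which overlaps UBE2S on the other strand. The most abundant, RPL8, was at 3389 and 3626 FPKM as deposited. Many have processed pseudogenes, and how shared reads were counted is not stated.

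Glycolytic and hypoxia-response genes were lower nearly throughout. They carry glucose into the cell and to lactate, and most are targets of hypoxia-inducible factors. Of 46 genes, 37 were kept. In all 5 were higher and 32 lower, 1 with an interval above a fold of 1 and 24 with one below it, and the median log2 fold change was −0.15. Those below were 64.9% of the list, against 16.4% of all kept genes with an interval. Besides EPO, PFKFB3 and SLC2A1, whose values stand above, PFKFB4 was at 42.5 and 29.9 FPKM and PDK1, which keeps pyruvate from the mitochondria, at 21.6 and 15.8. ENO1, enolase, an abundant member, was at 1446 and 1118 FPKM, from 26798 and 19293 reads. Its log2 fold change was −0.37 on the deposited values and −0.44 (−0.46 to −0.41) after quantile normalization. LDHA, lactate dehydrogenase, was at 791 and 606 FPKM and PGAM1 at 467 and 371. GAPDH was the most abundant and differed less, at 1435 and 1353 FPKM. PKM, the pyruvate kinase of dividing tissues, was at 822 and 677 FPKM, while PKLR, the liver form, was the 1 member past 1.5-fold higher. Both factors that give the response its name, HIF1A (95.2 and 90.9 FPKM) and EPAS1 (161 and 154 FPKM), had intervals that included a fold of 1, as did VEGFA (87.97 and 87.2 FPKM).

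The core letters of the hypoxia element, ACGTG or GCGTG on either strand, were in 22 of the 33 promoters of this list that had an entry, 66.7%, against 59.1% of the promoters of kept genes and 43.1% of all promoters. ACGTG alone was in 13 of the 33, 39.4%, against 24.3% and 18.7%. These short letters are common, and the 22 genes with them had a median log2 fold change of −0.12, against −0.21 for the 11 without. EPO, the lowest member, had no copy, and neither did SLC2A1, the next lowest after PFKFB3. The promoter of PFKFB3, the next lowest after EPO, is shown with its 1 copy in capitals, at chr10:6144671-6144920 (plus strand).
PFKFB3: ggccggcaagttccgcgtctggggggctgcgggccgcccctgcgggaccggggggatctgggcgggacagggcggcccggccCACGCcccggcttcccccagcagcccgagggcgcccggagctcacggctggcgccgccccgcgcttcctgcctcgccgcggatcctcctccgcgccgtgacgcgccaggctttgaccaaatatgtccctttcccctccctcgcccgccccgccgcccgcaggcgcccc

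Secreted plasma proteins, the main product of hepatocytes, were higher in most members. Of 64 genes, 52 were kept. The median log2 fold change was 0.11, with 38 higher and 11 lower, and the interval cleared a fold of 1 upward for 29 and downward for 5. Those above were 59.2% of the members with an interval, against 16.9% of all kept genes with one. AMBP, 1 of the 5 with an interval below, was at 3437 and 3560 FPKM as deposited. Its log2 fold change was −0.08 only after quantile normalization. The list median was 0.11 on the deposited values too. Past 1.5-fold, beside ITIH1 and ITIH3, were HP, PLG and CFI. PLG, plasminogen (chromosome 6, 160702238 to 160753315), was at 174 and 264 FPKM, 1.54-fold higher, from 2926 and 4138 reads. HP, haptoglobin, was at 19.7 and 31.4 FPKM and could share reads with its relative HPR. HP also overlaps TXNL4B, at a mean of 14.8 FPKM, on the other strand. CFI, a complement regulator, was at 11.96 and 18.5 FPKM. The fibrinogen chains FGG, FGA and FGB were at 502 and 614, 398 and 496, and 719 and 808 FPKM. AHSG, fetuin A, was lowest, at 1000.4 and 882 FPKM, and AFP and ALB, the most abundant, were at nearly the same FPKM in both libraries.

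Liver metabolism genes also had a median above 0. Of 63 genes of drug, urea and amino acid metabolism, 34 were kept. With 23 higher and 10 lower, 16 had an interval above a fold of 1 and 4 one below it, at a median log2 fold change of 0.10. MAT1A, the methionine adenosyltransferase of adult liver, was at 9.24 and 15.2 FPKM, a log2 fold change of 0.67 (0.50 to 0.95), second in the list to AGXT. UGT2B4, a glucuronidating enzyme, was at 23.8 and 33.96 FPKM, and the cytochromes CYP4F3 and CYP3A5 at 52.8 and 72.9996 and at 12.02 and 16.8. Urea cycle genes lay on both sides of 0. CPS1, its first enzyme, was the lowest member, at 30.6 and 25.9 FPKM, and ARG1, its last, was at 70.2 and 61.6, while ASS1 was at 162 and 179.7. The most abundant member, ALDH1A1, was at 2606 and 2648 FPKM.

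The factors that drive these genes had a median near 0. Of 32 hepatocyte transcription factors, 29 were kept. Across them 18 were higher and 11 lower, the interval lay above a fold of 1 for 9 and below it for 2, and the median log2 fold change was 0.03. CREB3L3, a membrane-bound factor of the acute phase and lipid response, was highest, at 36.1 and 48.3 FPKM, a log2 fold change of 0.42 (0.30 to 0.56). NR0B2, the bile acid-induced repressor SHP, was lowest, at 14.1 and 10.4 FPKM, and overlaps NUDC on the other strand. HNF4A, the master regulator of the hepatocyte program, was at 114 and 109 FPKM, with an interval of −0.12 to 0.0046, and HHEX, the most abundant, at 142 and 129.

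Lipid genes had medians near 0. Of 33 genes of cholesterol synthesis and uptake, 32 were kept. In all 21 were higher and 9 lower, 15 with an interval above a fold of 1 and 2 with one below it, and the median log2 fold change was 0.04. HMGCS1 was most abundant, at 998 and 1169 FPKM, and LBR lowest, at 139 and 129. Of 36 genes of fatty acid synthesis and lipid storage, 30 were kept. The median log2 fold change was 0.02, with 17 higher and 13 lower, and the interval cleared a fold of 1 upward for 10 and downward for 9. The lipid droplet proteins lay at both ends, with CIDEC highest and PLIN2 lowest, at 198 and 159 FPKM. FASN, fatty acid synthase, the most abundant, was at 1677 and 1699.6 FPKM.

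Oxidative stress and metal genes were mostly lower, with AKR1C2 as the exception past 1.5-fold. Of 36 NRF2 target, iron and metal genes, 32 were kept. With 12 higher and 20 lower, 7 had an interval above a fold of 1 and 14 one below it, at a median log2 fold change of −0.05. HMOX1, heme oxygenase, was lowest, at 27.9 and 18.7 FPKM, a log2 fold change of −0.53 (−0.78 to −0.33). TFRC, the transferrin receptor, was at 323 and 235 FPKM, and SLC39A14, a zinc and iron importer, at 390.3 and 294, while FTL, a ferritin chain and the most abundant member, was at 5788 and 5965. Of 50 unfolded protein response and ATF4 target genes, 46 were kept. Across them 14 were higher and 32 lower, the interval lay above a fold of 1 for 4 and below it for 18, and the median log2 fold change was −0.07. SLC7A5, an amino acid transporter, was lowest, at 33.5 and 23.8 FPKM, and DDIT3, the stress factor CHOP, highest, at 12.1 and 17.2, although it overlaps the much more abundant MARS1 on the other strand. CALR, calreticulin, was most abundant, at 1691 and 1631 FPKM. Of 32 heat shock and chaperone genes, 31 were kept. In all 5 were higher and 26 lower, 2 with an interval above a fold of 1 and 15 with one below it, and the median log2 fold change was −0.10. DNAJA1 was lowest, at 125 and 99.04 FPKM, HSPB1 highest, at 154 and 179, and HSPD1 most abundant, at 1048 and 1053.

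Inflammatory genes had a median above 0. Of 29 NF-kB and inflammatory targets found in the tables, 18 were kept. The median log2 fold change was 0.07, with 12 higher and 6 lower, and the interval cleared a fold of 1 upward for 6 and downward for 3. CCL20 and CXCL1 were the 2 past 1.5-fold, while CXCL5 (11.6 and 14.2 FPKM) and CXCL8 (5.86 and 6.62 FPKM) were higher, the interval of CXCL8 including a fold of 1. BIRC3, an inhibitor of cell death, was highest, at 5.01 and 6.82 FPKM. Of 43 interferon-stimulated genes found, 18 were kept. With 17 higher and 1 lower, 6 had an interval above a fold of 1 and 0 one below it, at a median log2 fold change of 0.11. Those above were 33.3% of the list and those below 0%, against 16.9% and 16.4% of all kept genes with an interval. PSMB8, a subunit of the immunoproteasome, was at 4.45 and 7.59 FPKM, a log2 fold change of 0.65 (0.34 to 1.18), and IFITM3, the most abundant, was at 65.5 and 94.3. DTX3L was the 1 lower member, at 14.7 and 14.3 FPKM.

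Transcripts of respiration had medians above 0. All 15 mitochondrial genome transcripts were kept. Across them 9 were higher and 6 lower, the interval lay above a fold of 1 for 9 and below it for 5, and the median log2 fold change was 0.07. On the deposited values that median was 0.11. Those above were 60% of the list and those below 33.3%, against 16.9% and 16.4% of all kept genes with an interval. MT-CO1, the most abundant, was at 7059.8 and 7977 FPKM, MT-ND6 highest, at 1439.8 and 1723, and MT-ATP8 lowest, at 28.03 and 18.4, from 95 and 58 reads and overlapping MT-ATP6. Of 71 nuclear genes of the respiratory chain, 67 were kept. In all 40 were higher and 26 lower, 15 with an interval above a fold of 1 and 6 with one below it, and the median log2 fold change was 0.02. On the deposited values the median of these nuclear genes was 0.0033. NDUFA13, a complex I subunit, was past 1.5-fold, at 4.28 and 7.20 FPKM from 53 and 83 reads. It overlaps YJEFN3, at a mean of 4.82 FPKM, on the same strand. UQCR11 was lowest, at 34.04 and 27.1, and ATP5F1B most abundant, at 1297 and 1228. The other most abundant genes of the cells were the elongation factors EEF1A1 (7480.1 and 7574 FPKM) and EEF2 (6378 and 6709.9 FPKM). EEF1A1 had a log2 fold change of −0.08 after quantile normalization and of 0.02 as deposited.

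Against the 16.4% of all kept genes with an interval below a fold of 1, that share was 48.4% of heat shock and chaperone genes, 44.4% of MAPK genes, 43.8% of NRF2 target, iron and metal genes and 39.1% of unfolded protein response genes. It was 33.3% of histone genes, 30% of fatty acid genes and 25% of Wnt genes, with 22.2%, 33.3% and 20.8% above, in that order. Of NF-kB targets 16.7% lay below and 33.3% above, of G2/M genes 11.3% and 24.5%, and of nuclear respiratory genes 8.96% and 22.4%. Of hepatocyte transcription factors 7.14% lay below and 32.1% above. Against the 16.9% above, it was 58.4% of ribosomal protein genes, 47.1% of drug, urea and amino acid metabolism genes and 46.9% of cholesterol genes. It was 40% of epithelial genes, 39.3% of DNA damage response and cell cycle inhibitor genes, 35.3% of matrix protease genes and 34.8% of mesenchymal genes. These lists had 24%, 10.7%, 11.8% and 13.04% below a fold of 1, in that order. An interval narrows with the number of reads, so abundant genes, among them those of ribosomal proteins, cleared a fold of 1 at smaller differences.

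Markers of library make-up that could move with these groups were read as well. Of 29 RNAs without poly-A tails, 2 were kept, SNORD17 at 15.5 and 12.5 FPKM and RN7SL2 at 1490.4 and 1725. Mitochondrial transcripts made up 4.31% of summed FPKM untreated and 4.62% with HGF. The 31 markers of other cell types summed to 704 FPKM untreated and 671 FPKM with HGF. Beside LYZ, the kept ones were PDGFRB, a receptor of pericytes, at 10.8 and 7.95 FPKM, VIL1 at 216 and 199, and CDX2, at 9.33 and 10.2. CD68, DCN, KDR, POSTN and HBB, which mark macrophages, fibroblasts, endothelium, matrix-forming cells and red cells, were listed at 0 in both libraries. Other listed markers of such cells had reads, though their means fell below the level filter. CD14 was at 4.37 and 4.63 FPKM, PDGFRA at 4.87 and 4.76, LUM at 2.52 and 2.30, and PECAM1 at 5.31 and 4.12. The part of these markers in the differences above was not tested.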

How the data were processed

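RNA of both Huh-7 cultures was sequenced in 1 library each, and samples were grouped by the genotype label, since the treatment text stands on both. The labels describe poly-T bead selection, while the paper's methods name rRNA depletion. The submitters' processing notes list TopHat2 2.0, HTSeq 0.6.1, edgeR and GRCh38.p12, without roles, whereas the paper names an older build. For Huh-7 the authors deposited FPKM, reads scaled for length and library size, without read counts. For the other 8 libraries they deposited counts and FPKM, which gave the length behind each gene's FPKM. After 8 lines without a gene were left out, each table held 58302 genes, 57532 with a symbol, and 97.6% of genes shared with GENCODE 29 had the same GRCh38 coordinates.

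Huh-7 reads were recovered from these lengths (9964 of the kept genes) or from the mean GENCODE 29 transcript length (104), with a tolerance of 0.01 for a whole read, and could not be for 11. FPKM were quantile normalized over both libraries, whereas the paper states this step over all its samples, and 1 was added before log2 fold changes were taken. The counting interval is the exact (Clopper-Pearson) 95% binomial interval of the split of a gene's reads, scaled to the same normalization but without the added 1. It covers counting error only, not the difference between cultures. Reads carry no molecular identifiers, so copies of 1 molecule may be counted as separate reads and leave the interval too narrow. With 1 library per condition there is no p-value, and a gene was called past 1.5-fold. Named genes are the 15 largest differences each way among genes with 100 or more reads, the highest, lowest and most abundant member of each of 30 gene lists with any member past 1.5-fold, 9 genes central to the study, and the 5 most abundant genes. Some genes that these rules name are not reported here. The filter keeps a mean of at least 5 FPKM, the genes nearest to it having means of 5.002 and 4.999 FPKM. The members and lists were chosen with earlier results of these data known. Promoter sequences are from RefSeq (GRCh38.p14), matched by symbol. The calculation was tested on simulated reads. Calculations used Python 3.11.15, numpy 2.4.6, pandas 2.3.3 and scipy 1.17.1, and plots matplotlib 3.10.9.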

Additional observations from a re-analysis of the deposited data

How the results depend on the processing

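The counts of genes past 1.5-fold (51 higher and 31 lower with HGF) depended on the level filter and the value added before the logarithm. With 5 added in place of 1 they were 19 and 8. With a mean of at least 1 FPKM they were 260 and 207, with at least 10 FPKM 18 and 11, and with no filter 762 and 729, of which 51.1% were higher, against 62.2%. At 2-fold they were 5 and 3. With quantile normalization over all 10 libraries, chosen after seeing the data, they were 80 and 50. The genes with an interval above and below a fold of 1 (1705 and 1656) became 1135 and 1086 with a 99% interval. The counts stayed within 1.5 times under deposited FPKM, scaling to the same sum, median-ratio scaling of the recovered reads, 0.1 added, and removal of GC content and length. Under deposited FPKM, 49 of the 51 and 30 of the 31 genes were called again. None of the 40 named genes past 1.5-fold changed sign over 381 values. Of 300 list medians, 3 changed sign, those of the DNA damage response list (−0.0038 at 1 FPKM), the Wnt list (0.03 at 10 FPKM) and the RNAs without poly-A tails (0.02 with no filter). The cause of these shifts was not tested. No paired analysis was possible because each condition had 1 library. Low counts limit genes near 5 FPKM, where the interval reached a median of 0.30 to each side on the log2 scale, against 0.068 above 100 FPKM.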

Other observations

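Further groups were noticed after their values had been seen, and are given as values only. Genes of the SLC1, SLC3, SLC6, SLC7 and SLC38 families, which hold amino acid transporters and, in SLC6, carriers of creatine, betaine and neurotransmitters, were mostly lower with HGF. Of 52 such genes 30 were kept, 24 were lower and 6 higher, the counting interval lay below a fold of 1 for 19 and above it for 2, and the median log2 fold change was −0.22. Those below were 63.3% and those above 6.67%, against 16.4% and 16.9% of all kept genes with an interval. All 178 kept solute carriers had a median of −0.023, with 30.3% below and 17.98% above. SLC6A8, a creatine transporter, was at 31.7 FPKM untreated and 20.2 with HGF. SLC1A4, a neutral amino acid transporter, was at 11.5 and 7.997 FPKM, and SLC7A8 at 17.5 and 12.7. SLC38A2, the most abundant of the lower members, was at 221 and 185 FPKM. The exceptions included SLC38A3, a glutamine transporter of hepatocytes, at 163 and 209 FPKM.

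Metallothioneins, small proteins that bind zinc and copper, were lower in 6 of 8 kept genes, with a median log2 fold change of −0.30. MT1G, the most abundant, was at 103 and 76.3 FPKM, and MT1E at 50.3 and 36.03, while MT1M was at 24.7 and 25.2. These genes are near-identical in sequence and may share reads. Among 20 kept tRNA methyltransferase genes the median was −0.020, yet both subunits of the enzyme that makes 7-methylguanosine were low, WDR4 (values above) and METTL1 at 18.1 and 12.8 FPKM. METTL1 overlaps EEF1AKMT3, at a mean of 9.88 FPKM, on the other strand. TRMT6 was at 13.2 and 8.73 FPKM.

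The isoenzymes of adult liver and of dividing cells lay on opposite sides in the pairs MAT1A and MAT2A, and PKLR and PKM, which were chosen for this. MAT1A was at 9.24 and 15.2 FPKM and MAT2A, the form of dividing and extrahepatic cells, at 114 and 85.6, log2 fold changes of 0.67 and −0.40. PKLR was at 18.2 and 30.8 FPKM and PKM at 822 and 677, log2 fold changes of 0.74 and −0.27. Among abundant genes outside the lists, S100A6, a calcium-binding protein, was at 140.0 and 226 FPKM, TXNIP, which restrains glucose uptake, at 146 and 208, and ANXA4, an annexin, at 234 and 162. Of 14 kept complement genes 12 were higher, with a median log2 fold change of 0.22, and C1R was at 6.53 and 10.7 FPKM. C1R overlaps the more abundant C1RL, at a mean of 71.2 FPKM, on the same strand. None of these patterns has a replicate check.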
